A study of Mus musculus with 8 samples.

Results

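The genes described here encode 7 RNA-binding proteins that set alternative splicing in epithelial and mesenchymal cells: Esrp1, Esrp2, Rbm47, Rbfox2, Qk, Mbnl1 and Ptbp1. They were chosen by name from that known role, but with earlier results of these data known. Their symbols were matched to Ensembl IDs through GENCODE M21, which found all 7 members among the 50143 genes of the deposited count table. RNA had been sequenced from 8 tumours that formed after injection of Py230 cells, an established line of mouse breast adenocarcinoma, into mammary gland 4 of ovariectomized female C57BL/6 mice. The obese group (4 tumours) came from mice on a high-fat diet with 60% of calories from fat (5.1 kcal/g), and the lean group (4 tumours) from mice on a regular diet with 10% of calories from fat (3.6 kcal/g). All mice were ovariectomized at 6 weeks of age, began their diet 2 weeks later, stayed on it for 6 weeks and then received tumour cells, and the tumours were taken on day 56. Both groups thus share the ovariectomy, the strain and a single injected cell line, and the tumours were sequenced whole, with the host cells they contain. The comparison asks which of these regulators differ in messenger RNA level between tumours of obese and lean hosts.

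Alternative splicing joins different exons of a gene into its messenger RNA, and RNA-binding proteins decide which exons are kept by binding short motifs in and around them. Esrp1 and Esrp2 (epithelial splicing regulatory proteins) promote exon choices typical of epithelium, for example in Fgfr2, Cd44, Ctnnd1 and Enah, and their loss is a known part of epithelial-mesenchymal transition. Rbm47 is a further RNA-binding protein enriched in epithelium, while Rbfox2, Qk (quaking) and Mbnl1 (muscleblind) are known for exon choices of mesenchymal cells and of muscle, and Ptbp1, the polypyrimidine tract binding protein, mostly represses exons and is made in most dividing cells. The counts give 1 value per gene, so they measure how much RNA of each regulator was present and not which exons it or its targets contained.

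Libraries held 25.7 to 66.7 M counts, and all 7 genes passed the filter on low counts. Values are CPM, counts per 1 M counts after TMM scaling, and a count of 0 allows up to 0.0494 to 0.124 CPM, a limit of 3 counts that covers counting error only. As the labels do not say more about their independence, p-values measure the spread between these tumours. The library numbers in the column headers run in 1 block for the obese and another for the lean tumours, so anything that followed that order cannot be told apart from the diet. In whole tumours, fewer cells of a type and less RNA per cell cannot be told apart. Markers of mammary epithelium were present in the lean tumours, where 20 epithelial genes summed to 2215 to 3974 CPM, against 82.7 to 299.7 CPM in obese replicates 1, 2 and 4 and 1348 CPM in obese replicate 3. Obese replicate 3 therefore stood apart from its group, and results are given with and without it where it matters.

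In tumours of obese mice the epithelial regulator Rbm47 fell, while Rbfox2, Qk, Mbnl1 and Ptbp1 rose. Esrp1 and Esrp2 were lower in every obese tumour than in any lean one, but the obese tumours differed so much among themselves that neither passed the test. Of the 7 genes, 4 rose and 1 fell by edgeR's quasi-likelihood test at an adjusted p under 0.05. Over all 14887 tested genes 59.2% passed, 30.9% higher and 28.4% lower in obese tumours, so a share of 5 in 7 is near that of the whole table. The groups did not overlap for 5 of the 7 genes, with Esrp1, Esrp2 and Rbm47 below and Rbfox2 and Ptbp1 above the lean range, against 57.0% of all tested genes (28.9% with obese above lean and 28.1% below). Without obese replicate 3 all 7 genes passed, 4 higher and 3 lower, where 64.8% of all tested genes did (31.1% higher and 33.6% lower). That tumour was singled out for its high epithelial markers in these same data, so this result describes the tumours and is no independent support. With any other single tumour left out, neither Esrp1 (edgeR adjusted p of 0.216 to 0.283) nor Esrp2 (0.0786 to 0.112) passed. With all 8 tumours limma-voom called 4 higher and 3 lower, where it called 64.1% of all genes (31.5% higher and 32.6% lower). The DESeq2 Wald test called 4 higher and 2 lower, where it called 65.0% of all genes (30.9% higher and 34.1% lower).

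**Figure D1:**
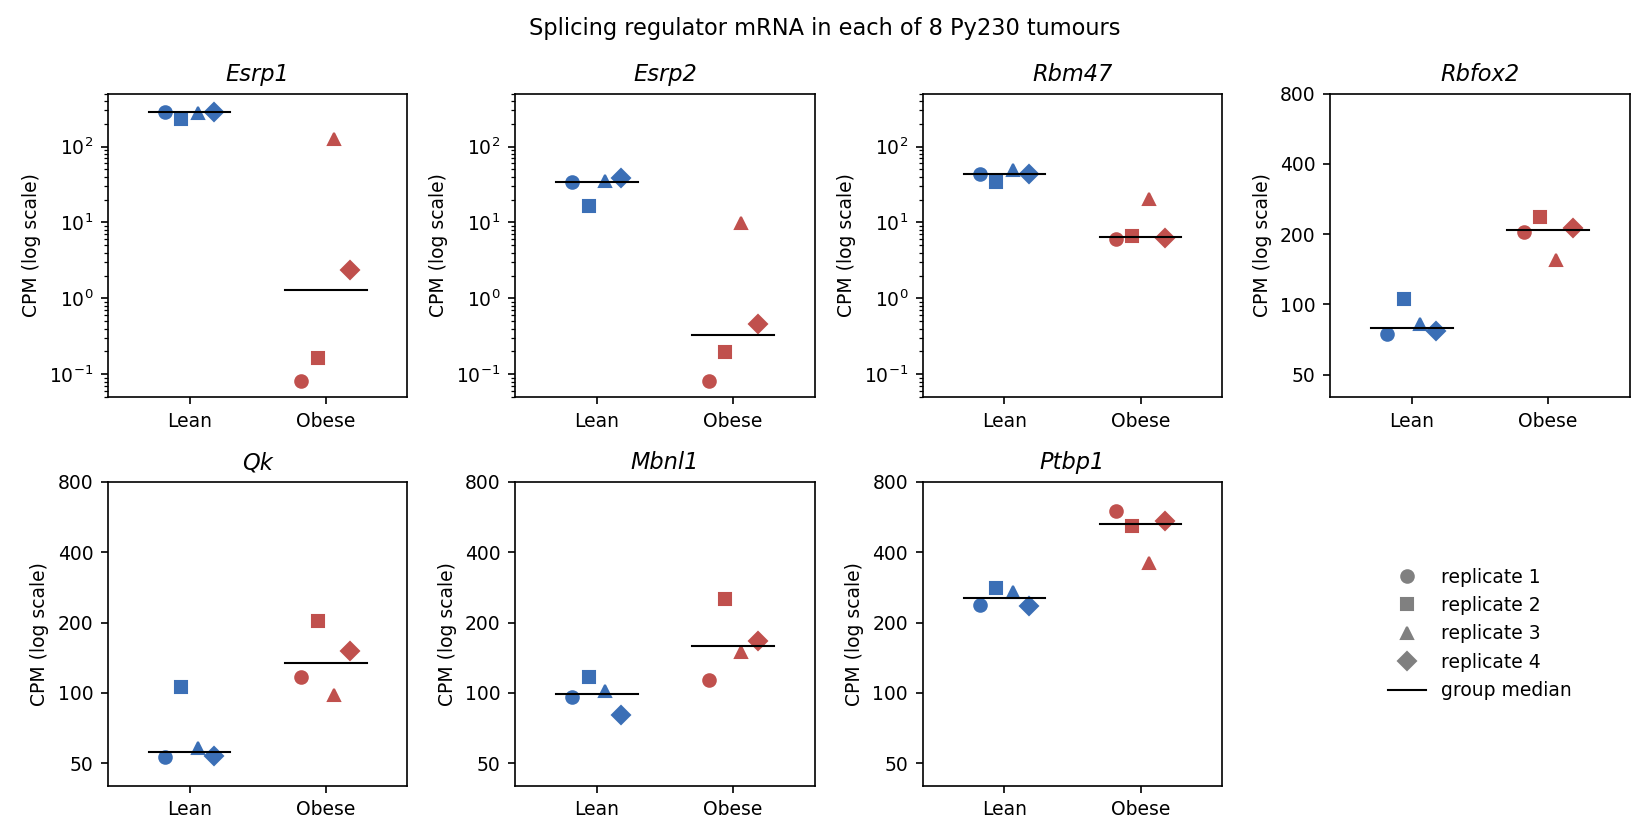
Level of each of the 7 genes (CPM, log axis) in 4 lean (blue) and 4 obese (red) tumours. Each point is 1 tumour, the marker shape gives the replicate number and the black line is the group median. The ranges differ between panels: 0.05 to 500 CPM for Esrp1, Esrp2 and Rbm47 and 40 to 800 CPM for the others. Obese replicate 3 (triangle) is the highest obese tumour for Esrp1, Esrp2 and Rbm47, and lean replicate 2 (square) the highest lean tumour for Rbfox2, Qk, Mbnl1 and Ptbp1.

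Esrp1 (ENSMUSG00000040728, GRCm38 chromosome 4, 11331933 to 11386783, minus strand) stood at 285, 234, 278 and 289.6 CPM in lean replicates 1 to 4. In obese replicates 1 to 4 it stood at 0.0826, 0.165, 125 and 2.40 CPM. Every lean tumour was thus above every obese tumour, but the obese tumours were themselves far apart, since replicate 3 held 46.1% of the lean mean and the other 3 obese tumours on average 0.325% of it. The lowest value, in obese replicate 1, rested on 2 counts (exact Poisson interval 0.0100 to 0.298 CPM), so at that depth it is known only to lie near 0. The group means were 31.9 ± 62.1 CPM in obese and 272 ± 25.5 CPM in lean tumours (SD, n = 4 each). The log2 change, obese minus lean, was −3.09 ± 1.85 (SE) and did not pass (edgeR adjusted p = 0.176). Without obese replicate 3 it was −8.21 ± 1.09 and passed (edgeR adjusted p = 0.000486). The tests that work on log values gave a larger change with all 8 tumours, −7.25 by limma-voom (limma adjusted p = 0.00304), and over 18 alternatives the adjusted p ran from 5.54e-05 to 0.283.

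Esrp2 (ENSMUSG00000084128, chromosome 8, 106130319 to 106136974, minus strand), the closely related partner of Esrp1, showed a like split between the groups at a lower level. It stood at 33.9, 16.7, 34.7 and 38.1 CPM in the lean and at 0.0826, 0.198, 9.75 and 0.456 CPM in the obese tumours. Obese replicate 3 was again the highest obese tumour, at 31.6% of the lean mean, while the others averaged 0.796% of it, and lean replicate 2 was the lowest lean tumour. Means were 2.62 ± 4.75 against 30.8 ± 9.60 CPM (SD, n = 4 each). The log2 change was −3.54 ± 1.38 and missed the threshold narrowly (edgeR adjusted p = 0.0558). It was −6.89 ± 0.60 without obese replicate 3 (edgeR adjusted p = 8.48e-05), and over 18 alternatives the adjusted p ran from 2.76e-05 to 0.112. Exons of Esrp2 share 219 bases with Nfatc3 on the opposite strand. The strand setting of the counting is not stated, so reads from that stretch may have counted for Esrp2, Nfatc3 or neither. The same holds for Ptbp1, whose exons share 437 bases with Gm17134, 295 with E130317F20Rik and 251 with Plppr3 on the opposite strand, for Esrp1 (127 with Gm26663) and for Rbm47 (112 with Gm26725). Rbm47 also shares 276 bases of exon with Gm43323 on its own strand, where no strand setting separates them.

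Rbm47 (ENSMUSG00000070780, chromosome 5, 66016549 to 66173118, minus strand), an RNA-binding protein that acts on splicing and on transcript stability, was the epithelial regulator that fell in the full set of tumours. Its lean values were 43.7, 34.3, 48.4 and 42.95 CPM. Its obese values were 6.11, 6.63, 20.3 and 6.17 CPM. Here 3 obese tumours were nearly equal, with replicate 3 about midway to the lean range, and none was near 0: those 3 averaged 14.9% of the lean mean. Means were 9.80 ± 7.0 against 42.3 ± 5.88 CPM (SD, n = 4 each), a log2 change of −2.11 ± 0.43 (edgeR adjusted p = 0.00487). It was −2.74 ± 0.18 without obese replicate 3 and passed in 18 of 18 alternatives. As a share of the lean mean, the level of Rbm47 in obese replicates 1, 2 and 4 was above those of Esrp1 and Esrp2, a difference that was not tested.

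Rbfox2 (ENSMUSG00000033565, chromosome 15, 77078990 to 77307004, minus strand), which can include or skip an exon depending on where it binds, rose. It stood at 205, 238, 155 and 212 CPM in the obese and at 74.8, 105, 82.1 and 76.5 CPM in the lean tumours. All obese tumours were above all lean ones, and obese replicate 3 and lean replicate 2 came closest to the other group. Means were 202 ± 34.5 against 84.7 ± 14.2 CPM (SD, n = 4 each), a log2 change of 1.26 ± 0.17 (2.39-fold, edgeR adjusted p = 0.000945). It passed in 18 of 18 alternatives, with changes of 1.04 to 1.38.

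Qk (ENSMUSG00000062078, chromosome 17, 10202601 to 10319854, minus strand), a STAR-family protein that also controls the formation of circular RNAs, stood at 117, 202, 97.4 and 151 CPM in the obese tumours. In the lean tumours it stood at 53.0, 106, 58.1 and 53.4 CPM. The groups overlapped only through lean replicate 2, which lay above obese replicate 3, while the other lean tumours lay close together. Means were 142 ± 45.96 against 67.7 ± 25.8 CPM (SD, n = 4 each), and Qk rose by a log2 change of 1.07 ± 0.31 (edgeR adjusted p = 0.0184). Leaving out a lean tumour ended the call for replicate 1 (edgeR adjusted p = 0.0509), replicate 3 (0.0551) and replicate 4 (0.0539). With offsets for GC content and exon length the change was 0.69 and still passed (edgeR adjusted p = 0.0108).

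Mbnl1 (ENSMUSG00000027763, chromosome 3, 60472830 to 60629750, plus strand), which drives exon switches of differentiation, had the smallest change of the 7 genes. It stood at 113, 253, 149.9 and 166 CPM in the obese and at 96.1, 117, 102 and 80.4 CPM in the lean tumours. The groups overlapped, as obese replicate 1 lay below lean replicate 2, and obese replicate 2 was well above all others. Means were 170.5 ± 59.3 against 98.95 ± 15.3 CPM (SD, n = 4 each), and Mbnl1 rose by a log2 change of 0.78 ± 0.25 (edgeR adjusted p = 0.0251). Mbnl1 lost its call in more of the alternatives than Qk, Rbm47, Rbfox2 or Ptbp1. With offsets for GC content and exon length the change was 0.30 (edgeR adjusted p = 0.126). The call also ended under scaling to the upper quartile (edgeR adjusted p = 0.0640) or to library size alone (0.0631), and when lean replicate 1 (0.0540), 3 (0.0531) or 4 (0.0635) was left out. Its adjusted p over 18 alternatives ran from 0.00187 to 0.126.

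Ptbp1 (ENSMUSG00000006498, chromosome 10, 79854427 to 79864771, plus strand) rose. It stood at 600.2, 517, 361 and 545 CPM in the obese and at 239, 282, 269.6 and 236 CPM in the lean tumours. The groups did not overlap, and obese replicate 3 was the lowest of its group. Means were 506 ± 103 against 257 ± 23.0 CPM (SD, n = 4 each), a log2 change of 0.98 ± 0.17 (1.97-fold, edgeR adjusted p = 0.00246), and it passed in 18 of 18 alternatives. Of the 3120 stretches of 50 bases in its longest transcript, 219 (7.02%) also occur in transcripts of other genes, all of them in the predicted gene Gm4900, so a small part of its reads may be uncertain. For Esrp1, Esrp2, Rbm47, Rbfox2 and Mbnl1 none did, and for Qk 9 of 8485.

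**Figure D2:**
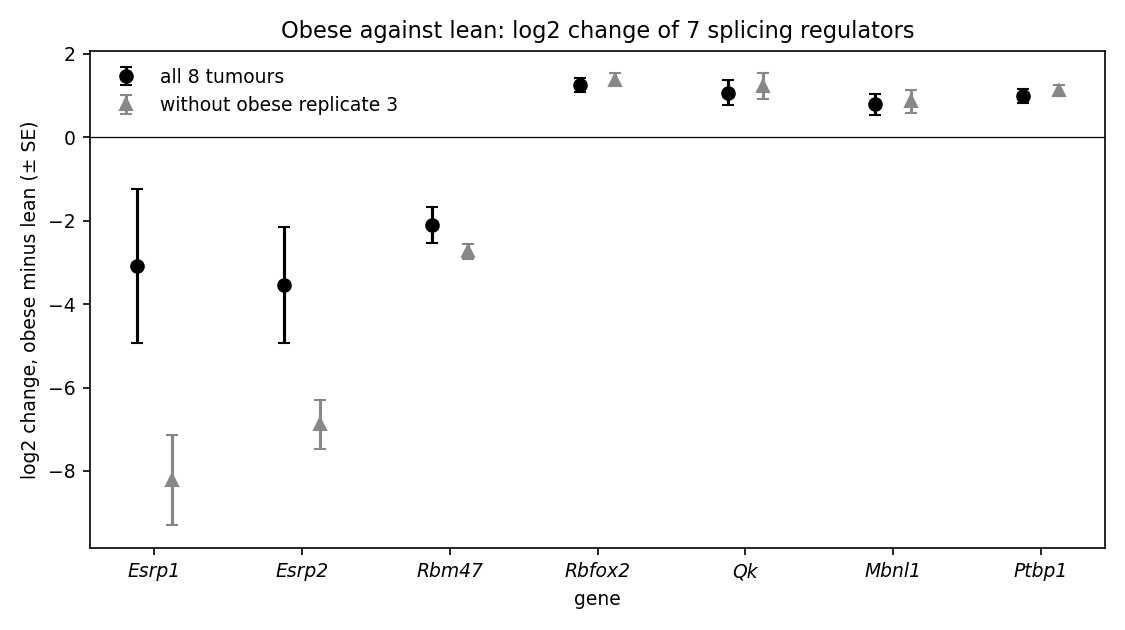
Log2 change of each gene, obese minus lean, from edgeR's quasi-likelihood test (points, with bars of ± 1 SE), for all 8 tumours (black circles) and without obese replicate 3 (grey triangles). Leaving out that tumour, singled out for its high epithelial markers, moves Esrp1 from −3.09 to −8.21 and Esrp2 from −3.54 to −6.89. Rbfox2, Qk, Mbnl1 and Ptbp1 keep their direction and move far less.

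RefSeq promoter windows on GRCm38.p6 were found for 4 of the 7 genes (Rbm47, Qk, Mbnl1 and Ptbp1), and not for Esrp1, Esrp2 and Rbfox2. A start of Rbm47, a gene that fell, and the start of Ptbp1, a gene that rose, are shown to set side by side what their promoters look like: 250 bases before each start, 5′ to 3′ on the gene's strand, with every CG dinucleotide in capitals. The Rbm47 window, chr5:66151955-66152204 on the minus strand, has 41.6% G and C and 7 CG dinucleotides, and 4 of its bases lie in annotated exons. The Ptbp1 window, chr10:79854182-79854431 on the plus strand, has 57.6% and 17, and 5 of its bases lie in annotated exons.
Rbm47: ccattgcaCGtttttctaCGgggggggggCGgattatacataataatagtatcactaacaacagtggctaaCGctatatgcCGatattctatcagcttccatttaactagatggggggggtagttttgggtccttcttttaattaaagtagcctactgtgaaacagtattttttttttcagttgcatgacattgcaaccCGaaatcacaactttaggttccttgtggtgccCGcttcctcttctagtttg
Ptbp1: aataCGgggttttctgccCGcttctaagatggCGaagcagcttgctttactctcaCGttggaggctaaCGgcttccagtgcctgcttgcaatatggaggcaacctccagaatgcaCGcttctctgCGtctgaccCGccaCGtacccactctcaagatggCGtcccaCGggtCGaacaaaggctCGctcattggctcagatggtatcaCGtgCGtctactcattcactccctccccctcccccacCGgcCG
The median over 32851 promoter windows of the same length was 6 CG dinucleotides (quartiles 2 and 16), so the Rbm47 window lies near the median and that of Ptbp1 just above the upper quartile. The other Rbm47 windows held 1 and 11, so its place beside the median depends on the start shown, and the windows of Qk and Mbnl1 held 1 to 52. The E-box letters CACCTG, bound by Zeb and Snail proteins, were searched on both strands (CAGGTG on the other) and were in 0 of the 7 windows of these genes, and in 17.2% of all windows.

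Levels of different genes can be compared only per length, here as RPKM (CPM per kilobase of the union of annotated exons). In lean tumours the order of mean RPKM was Ptbp1 (54.1 ± 4.86), Esrp1 (43.1 ± 4.04), Rbfox2 (10.4 ± 1.74), Esrp2 (7.11 ± 2.21), Rbm47 (5.91 ± 0.82), Mbnl1 (5.29 ± 0.82) and Qk (4.75 ± 1.81), each with its SD over 4 tumours. With this exon length the tumours' RPKM ranges did not overlap between Ptbp1 and Esrp1 or between Esrp1 and Rbfox2, whereas those of Esrp2, Rbm47, Mbnl1 and Qk overlapped, so the order of the last 4 is not set by these data. In obese tumours the mean RPKM was 107 ± 21.6 for Ptbp1, 24.9 ± 4.24 for Rbfox2, 9.97 ± 3.23 for Qk and 9.11 ± 3.17 for Mbnl1. Esrp1 there had a mean RPKM of 5.07 ± 9.86, Rbm47 of 1.37 ± 0.98 and Esrp2 of 0.604 ± 1.10. With exon union lengths Esrp1 was thus second in RPKM in every lean tumour and below Rbfox2, Qk and Mbnl1 in obese replicates 1, 2 and 4, while in obese replicate 3 its 19.8 RPKM was next to the 19.1 RPKM of Rbfox2. With the length of the longest transcript in place of the exon union, Mbnl1 had a lean mean of 17.5 RPKM and Esrp1 one of 70.3 RPKM, so the place of Mbnl1 in the order depends on the length used. With that length the lean RPKM ranges of Esrp1 (60.6 to 74.9) and Ptbp1 (74.3 to 89.1) also overlapped, and in lean replicate 4 Esrp1 was above Ptbp1.

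**Figure D3:**
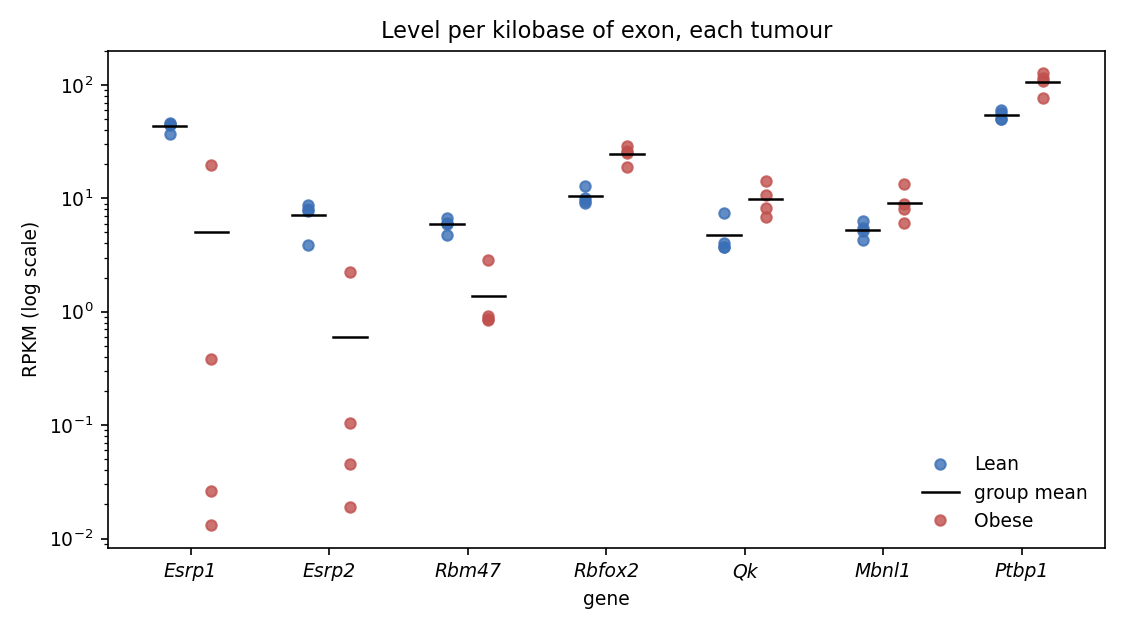
RPKM of the 7 genes by exon union length (log axis) in each lean (blue) and obese (red) tumour, with the group mean as a black line. Esrp1 is second to Ptbp1 in the lean tumours and spans 0.0131 to 19.8 RPKM in the obese tumours, while Ptbp1 has the highest RPKM of the 7 genes in all 8 tumours.

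The tumours also differed within each group. Among the lean tumours, replicate 2 had the lowest Esrp1, Esrp2 and Rbm47 and the highest Rbfox2, Qk, Mbnl1 and Ptbp1. Among the obese tumours, replicate 3 had the highest Esrp1, Esrp2 and Rbm47 and the lowest Rbfox2, Qk and Ptbp1, though not the lowest Mbnl1, which was in replicate 1. Over all 8 tumours Pearson's r of log2 CPM was 0.99 between Esrp1 and Esrp2, 0.95 between Esrp1 and Rbm47 and 0.97 between Rbfox2 and Ptbp1. Esrp1 and Rbfox2 had an r of −0.89, and Esrp2 and Ptbp1 one of −0.98. Mbnl1 had an r of −0.64 to Esrp1, −0.67 to Esrp2, −0.72 to Rbm47 and 0.70 to Ptbp1, but of 0.83 to Rbfox2 and 0.90 to Qk. These values describe 8 points that fall into 2 groups and share their libraries and the split of epithelial markers. The genes most like each regulator over the 8 tumours, out of 12400 compared, were Enpp5, Sybu and Tspan1 for Esrp1 (r of 0.998 to 0.999). For Esrp2 they were Tmem54, Grb7 and Shroom3, and for Rbm47 they were Metap1d, Abcb9 and Irx5 (r of 0.998 to 0.999 for both). For Rbfox2 they were Agfg1, Gna13 and Clmp, and for Qk they included Ankib1 and Nek1 (r of 0.996 to 0.998 for both). For Mbnl1 they were Atl3, Dnajb9 and Sertad2 (r of 0.97 to 0.99), and for Ptbp1 they were Nln, Ano6 and Cdr2l (r of 0.99 to 0.996).

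Whether related regulators changed unequally was tested on log2 ratios within each tumour, for 8 ratios. All 70 ways to label 4 of the 8 tumours obese were used (exact permutation, two-sided, smallest possible p 0.0286). After adjustment over the 8 ratios, 1 ratio alone at that smallest p could not pass. The adjusted test could therefore hardly decide for any single ratio. The log2 ratio of Esrp1 over Esrp2 was 3.07, 3.81, 3.0 and 2.93 in the lean and 0, −0.21, 3.68 and 2.29 in the obese tumours. Obese replicates 1 and 2, where both genes rested on at most 12 counts, were the low ones, and the group difference of −1.76 did not pass (exact p = 0.143, adjusted p = 0.286). The ratios of Mbnl1 over Mbnl2 (difference 0.34) and of Ptbp1 over Ptbp3 (−0.18) did not pass either (exact p = 0.0571 and 0.400, adjusted p = 0.229 and 0.640). Against Epcam, an epithelial adhesion protein, Esrp2 had a ratio of −3.97 to −3.69 in the lean tumours and of −4.16 to −2.11 in the obese tumours (difference 0.35, exact permutation adjusted p = 0.714). The −2.11, in obese replicate 1, rested on 2 counts of Esrp2 and 12 of Epcam. Rbm47 over Epcam stood at −3.60, −2.76, −3.21 and −3.65 in the lean and at 3.52, 0.65, −3.10 and 0.16 in the obese tumours. This ratio is of CPM and not per length, so it orders tumours and not the 2 genes. Obese replicates 1, 2 and 4 were above all lean tumours and obese replicate 3 was within the lean range, and the difference of 3.61 did not pass after adjustment (exact p = 0.0571, adjusted p = 0.229). Ratios of Mbnl1 over Mbnl3 (0.14), Ptbp1 over Ptbp2 (−0.14) and Esrp1 over Epcam (−1.42) did not pass either, and a p that misses the threshold does not show that the paired genes changed alike.

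Both paralogs of Ptbp1 rose with it. Ptbp2, the form of the polypyrimidine tract binding protein known from neurons, rose (25.8 ± 3.22 against 12.02 ± 0.87 CPM, SD, n = 4 each, log2 change 1.10 ± 0.15, edgeR adjusted p = 0.000921). Ptbp3, known from blood cells, rose as well (262 ± 46.1 against 119.6 ± 26.4 CPM, 1.13 ± 0.19, edgeR adjusted p = 0.00208). With offsets for GC content and exon length the changes were smaller, 0.51 for Ptbp2 and 0.68 for Ptbp3, and still passed (edgeR adjusted p = 0.0132 and 0.00174). Mbnl2 (0.41 ± 0.24) and Mbnl3 (0.59 ± 0.38) did not pass (edgeR adjusted p = 0.163 and 0.201). Rbfox1 and Rbfox3, which are known from neurons and muscle, reached at most 1.01 and 0.575 CPM in any tumour and were not tested, so Rbfox2 carried nearly all Rbfox RNA.

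Among 52 other splicing regulators, 49 were tested, of which 21 rose and 10 fell, with a median log2 change of 0.41 against −0.04 for all tested genes. Of all tested genes 30.9% rose and 28.4% fell. Of 9 heterogeneous nuclear ribonucleoprotein genes, whose products coat new transcripts and often repress exons, 8 rose, among them Hnrnpf (1.04 ± 0.16), Hnrnpu (1.03 ± 0.22), Hnrnpk (0.52 ± 0.13), Hnrnpl (0.51 ± 0.10) and Hnrnpm (0.52 ± 0.16), a partner and competitor of Esrp1 in exon choice. Hnrnph1 fell (−0.45 ± 0.13). All 9 kept their sign under the other scalings, but only 4 passed as higher under scaling to the upper quartile or to library size alone. SR proteins, which mostly promote exon inclusion, went both ways: Srsf10 (0.64 ± 0.16) and Srsf11 (0.36 ± 0.09) rose, and Srsf2 (−0.41 ± 0.11), Srsf5 (−0.63 ± 0.16), Srsf6 (−0.35 ± 0.13) and Srsf9 (−0.61 ± 0.13) fell. The 4 that fell did so under every scaling tried, whereas Srsf11 lost its call under 3 of them and Srsf10 with the offsets for GC content and exon length. With those offsets Srsf1, Srsf3 and Srsf7, which had not passed, changed sign, and Srsf4 was the 1 SR gene called higher. Srpk1, the kinase that phosphorylates SR proteins, had the smallest p of the list (127 ± 20.4 against 46.6 ± 6.64 CPM, 1.45 ± 0.16, edgeR adjusted p = 0.000398). Khdrbs3 (−3.04 ± 0.84) and Rbmx (−1.37 ± 0.24), RNA-binding proteins that also act in splicing, fell, and without obese replicate 3 the change of Khdrbs3 was −4.27 ± 0.62. Apart from Srpk1 and Hnrnpf, the genes of this list named here were chosen after their values were seen. With upper quartile factors 12 rose and 13 fell, and with library size alone 12 rose and 13 fell. These scalings move the median change of all genes to −0.25 and −0.22, and the first gives 3612 higher and 5145 lower genes in place of 4598 and 4221.

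**Figure D4:**
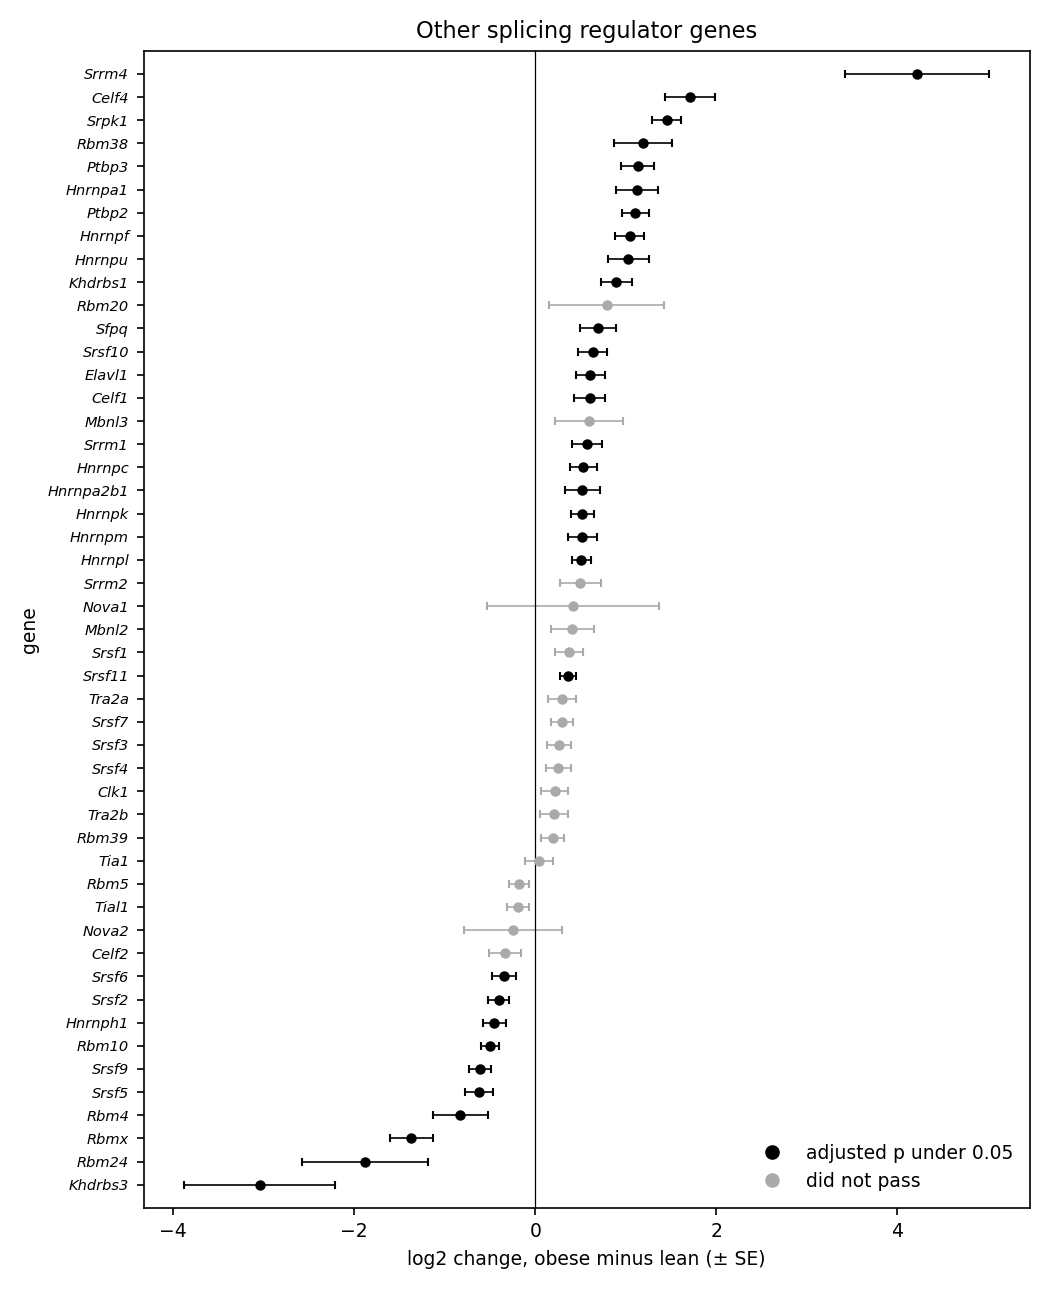
Log2 change, obese minus lean (± SE, edgeR), of 49 other splicing regulator genes, sorted by change. Black points passed an adjusted p of 0.05 and grey points did not; 21 black points lie to the right of 0 and 10 to the left.

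Of 24 genes of the core spliceosome, the machine that cuts and joins exons, 17 rose and 0 fell, with a median log2 change of 0.55. Of all 14887 tested genes 30.9% rose and 28.4% fell. Under either of those scalings 12 core genes rose and 1 fell. Of all tested genes 3612 rose and 5145 fell with upper quartile factors, and 3690 rose and 5026 fell with library size alone. By edgeR with TMM scaling 1 core gene was lower at an unadjusted p under 0.05, limma-voom called 0 lower and the DESeq2 test 1. Sf3a3 and Sf3b3, parts of the U2 particle that recognises the branch point, stood at 146 ± 10.3 against 66.4 ± 6.21 CPM (1.13 ± 0.11) and at 460.4 ± 49.8 against 229.8 ± 37.2 CPM (1.003 ± 0.15).

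Genes whose exons are known to be set by these regulators were also looked at for their total RNA. Of 24 such genes 8 rose and 8 fell, with a median log2 change of −0.18, shares near the 30.9% and 28.4% of all tested genes. Cd44, a hyaluronan receptor whose variable exons Esrp1 includes, stood at 560.5, 788.5, 423.5 and 606 CPM in the obese and at 174, 219.6, 119 and 104 CPM in the lean tumours. All obese tumours were higher, and obese replicate 3 was the lowest of its group (log2 change 1.95 ± 0.29, edgeR adjusted p = 0.00132). Actn1, an actin cross-linker, rose (2.20 ± 0.31), as did Osbpl3 (1.53 ± 0.17) and Arhgap17 (1.06 ± 0.13). Fgfr2, the receptor whose epithelial exon IIIb depends on the Esrp proteins, was chosen after its values were seen. It stood at 0.165, 0.231, 2.07 and 0.360 CPM in the obese and at 8.37, 81.6, 34.5 and 13.2 CPM in the lean tumours, and fell (−5.57 ± 1.16, edgeR adjusted p = 0.00543). Enah, an actin regulator with an epithelial exon, was chosen in the same way and fell, with 7.82 ± 10.6 CPM in obese against 71.6 ± 20.9 CPM in lean tumours (SD, n = 4 each, log2 change −3.19 ± 0.88, edgeR adjusted p = 0.0160). Without obese replicate 3 the log2 change was −7.03 ± 1.03 for Fgfr2 and −4.83 ± 0.33 for Enah. For Fgfr2 in the obese tumours so few reads were counted that its exon choice there could hardly be measured at this depth.

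Markers of epithelium, mesenchyme and host cells were measured beside these results. Their counts are to be read beside the shares of all tested genes, 30.9% higher and 28.4% lower by edgeR. Without obese replicate 3 these shares were 31.1% and 33.6%. A list whose counts lie near these shares does not differ in this from the whole table. Of 20 epithelial markers 0 rose and 9 fell (median −3.24), and without obese replicate 3 19 fell (median −6.44). At an unadjusted p under 0.05 by edgeR 1 epithelial marker was higher, and limma-voom and the DESeq2 test each called 1 higher. Of 14 mesenchymal markers 9 rose and 2 fell (median 2.20), and their summed level ran from 6965 to 14093 CPM in obese and from 1634 to 4056 CPM in lean tumours. Among them Zeb1 and Zeb2, repressors of epithelial genes known to lower Esrp1, rose by log2 changes of 2.29 ± 0.38 and 3.45 ± 0.36 (Zeb1 was chosen after its values were seen). Not all mesenchymal genes went that way: Snai2, a further repressor of epithelial genes, and Cdh2, N-cadherin, fell (−4.92 ± 1.003 and −4.43 ± 0.99, edgeR adjusted p = 0.00506 and 0.00699), and Snai1 did not pass (0.49 ± 0.44, edgeR adjusted p = 0.350). These 3 were also named after their values were seen. Zeb1 stood at 75.4, 108, 46.6 and 75.2 CPM in the obese and at 9.50, 25.2, 17.3 and 10.4 CPM in the lean tumours, so that obese replicate 3 was lowest and lean replicate 2 highest in their groups. Zeb2 stood at 146, 254, 76.5 and 144 CPM in the obese and at 18.0, 14.2, 13.4 and 11.3 CPM in the lean tumours. Obese replicate 3 was again lowest for Zeb2, but lean replicate 1 was highest. Fibroblast markers (2 rose and 5 fell of 10) summed to 1184 to 5097 against 1248 to 1619 CPM, macrophage markers (4 rose and 1 fell of 10) to 1798 to 2252 against 1217 to 3146 CPM, and endothelial markers (1 rose and 4 fell of 10) to 293 to 391 against 202 to 417 CPM. Lymphocyte markers (0 rose and 9 fell of 10) summed to 138 to 236 against 199 to 347 CPM and adipocyte markers (0 rose and 2 fell of 10) to 104 to 558 against 265 to 706 CPM. Skeletal muscle markers (0 rose and 1 fell of 10, with 6 lower without obese replicate 3 and 8 by the DESeq2 test) summed to 8.71 to 249.9 against 56.6 to 1592 CPM, and smooth muscle and myoepithelial markers (0 rose and 9 fell of 10) to 73.5 to 129 against 347 to 3989 CPM, highest in lean replicate 2. No marker in any of these lists was at 0 in all tumours, and the part of these cells in the levels of the 7 regulators was not tested. In the lymphocyte, adipocyte, skeletal muscle and smooth muscle lists, where 0 genes rose, edgeR at an unadjusted p under 0.05 had 1 lymphocyte marker and 0 others higher, and limma-voom and the DESeq2 test called 0 higher.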

How the data were processed

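RNA of 8 tumours was made into stranded TruSeq libraries, per the labels' protocols. The authors deposited raw whole-number read counts per Ensembl gene, 1 column per tumour. The submitters' processing notes list STAR 2.5.2b, HTSeq (no version), cutadapt 1.12, CASAVA 1.8, bcl2fastq 2.18.0.12 and the mm10 build, while the annotation and the strand setting are not given in the sources used here. Columns were matched by the tumour numbers in the sample titles.

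filterByExpr (minimum count 10, minimum total 15) kept 14887 of 50143 genes. After TMM scaling, the 4 obese were compared with the 4 lean tumours by the robust two-sided quasi-likelihood test of edgeR 4.0.16 in R 4.3.3. P-values were adjusted (Benjamini-Hochberg) across every gene tested, and 0.05 was the threshold. The SE is the log2 change over the square root of F, and log2 CPM used a prior count of 2. Alternatives were DESeq2, upper quartile and no scaling factors, 2 other filters, limma-voom (limma 3.58.1) without and with quality weights, the DESeq2 1.42.0 Wald test, 1 surrogate variable (sva 3.50.0), offsets for GC content and exon length, and each tumour left out in turn.

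The members and lists were chosen with earlier results of these data known. Named genes are the 7 members, their paralogs, up to 4 genes with the smallest p from each list (the 2 most abundant where none passed) and the 3 genes most correlated with each member, without predicted models and genes with a mean log2 CPM under 0. The text names part of them and marks genes picked on their values. A result on 1 of the correlated genes is not reported here. Gene coordinates (GRCm38, GENCODE M21) count from 1.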

Additional observations from a re-analysis of the deposited data

Results flagged for a closer look

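Of 30 sets of 4 tumours checked with Dixon's ratio (critical value 0.829), 6 held a tumour set far from the other 3. Chance alone marks about 1 in 20 independent sets, but these sets share tumours and correlated genes. Genes were checked on CPM and not on log values, and ratios on log2 values. In log2 CPM Esrp1 stood at −3.00, −2.27, 6.97 and 1.29 in obese replicates 1 to 4, where replicate 3 is less far apart. Obese replicate 3 stood above the other obese tumours in 3 epithelial regulators, with Esrp1 at 125 CPM, Esrp2 at 9.75 CPM and Rbm47 at 20.3 CPM. The summed epithelial markers were highest of the obese group in the same tumour, at 1348 CPM. Lean replicate 2 stood above the other lean tumours in Qk (106 CPM) and in the log2 ratio of Esrp1 over Esrp2 (3.81), and it also had the highest summed smooth muscle and myoepithelial markers, 3989 CPM. Obese replicate 1 had a log2 ratio of Mbnl1 over Mbnl2 of 0.39, below the other obese tumours. The part of these markers in the values was not tested.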

How the results depend on the processing

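Rbm47, Rbfox2 and Ptbp1 passed in all 18 alternatives, and no log2 change of a member reversed. Esrp1 passed with limma-voom (−7.25), with its quality weights (−7.55) and with 1 surrogate variable (−7.25). Esrp2 passed with DESeq2 size factors (−3.65), limma-voom (−5.56), quality weights (−6.32), the DESeq2 Wald test (−3.66) and 1 surrogate variable (−5.93). Mbnl1 did not pass with GC and length offsets (0.30), upper quartile factors (0.57) or scaling to library size (0.59). The cause was not tested.

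Leaving out 1 tumour gave −8.21 to −2.66 for Esrp1, −6.89 to −3.14 for Esrp2, 0.86 to 1.37 for Qk and 0.54 to 0.95 for Mbnl1. Without obese replicate 3, Esrp1 and Esrp2 passed, and without any other single tumour they did not. Without lean replicate 1, 3 or 4, neither Qk nor Mbnl1 did. Counts of members then ran from 2 to 4 higher and from 1 to 3 lower. Of 15029 to 15220 tested genes in these runs, 3820 to 4771 were higher and 3136 to 5107 lower. Of other regulators 6 to 10 were lower (6 without obese replicate 4 or lean replicate 4), and of the core spliceosome 0 to 1 (1 without lean replicate 2). Members lower numbered 2 with DESeq2 size factors and the DESeq2 Wald test, and 3 with limma-voom, quality weights and 1 surrogate variable. Of all 14887 tested genes 4533, 5072, 4853, 5810 and 5098 were lower in these settings, in that order. Other regulators higher numbered 12 with upper quartile factors, 12 with library size alone and 32 with quality weights. Of all 14887 tested genes 3612, 3690 and 5595 were higher in these settings, in that order. Core genes lower numbered 1 under the same 2 scalings, 1 CPM in 4 tumours and the DESeq2 Wald test, and 3 with quality weights. Of all tested genes 5145 and 5026 were lower under those scalings, and 4052 of 13319 with the filter of 1 CPM. Of the marker lists, epithelial genes lower numbered 9 by edgeR, 18 by limma-voom and 15 by the DESeq2 test. In that order, skeletal muscle genes lower numbered 1, 1 and 8 and macrophage genes lower 1, 1 and 3. Adipocyte genes lower numbered 2, 4 and 4, and smooth muscle genes lower 9, 6 and 10. Of all tested genes 28.4%, 32.6% and 34.1% were lower by these tools.

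Of 270 alternatives for genes and ratios, 3 reversed, all in ratios that had not passed: Mbnl1 over Mbnl3 (−0.038 without lean replicate 2, up to 0.23), Ptbp1 over Ptbp2 (0.0041 without obese replicate 3, down to −0.28) and Esrp2 over Epcam (−0.11 without obese replicate 1, up to 0.57). With longest transcript lengths mean RPKM was 70.3 for Esrp1 and 8.13 for Rbm47 in lean tumours, and in obese and lean tumours 29.3 and 12.3 for Rbfox2, 16.6 and 7.92 for Qk, 30.1 and 17.5 for Mbnl1 and 159.6 and 80.9 for Ptbp1. No paired analysis was possible because the replicate numbers were given in accession order and pair no tumours. Esrp1 and Esrp2 rested on few counts in obese replicates 1 and 2, with 2 to 12 counts each. Replicate 1 was the shallowest library (25.7 M counts) and replicate 2 the deepest (66.7 M).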

Other observations

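Several regulators better known from neurons and muscle, chosen after their values were seen unless named by the rule, were measurable at low level. Celf4, a neuronal splicing and translation regulator named by the rule, rose (9.15 ± 1.94 against 2.79 ± 0.60 CPM, n = 4 each, log2 change 1.71 ± 0.28, edgeR adjusted p = 0.00191). Srrm4, which includes neuronal microexons, stood at 1.03 ± 0.11 CPM in obese and 0.0556 ± 0.0657 CPM in lean tumours (4.22 ± 0.80, edgeR adjusted p = 0.00353), where the lean mean is near the limit of 3 counts. Apart from these, Rbm38, an RNA-binding protein induced by p53 and present at a higher level, rose (42.4 ± 14.3 against 18.5 ± 5.82 CPM, 1.19 ± 0.32, edgeR adjusted p = 0.0136). Nova1 and Nova2, also neuronal, had log2 changes of 0.42 ± 0.95 and −0.24 ± 0.54 and did not pass (edgeR adjusted p = 0.717 and 0.711). Of the same list, Rbm24, Rbm20 and Celf2 did not rise. Rbm24 fell, with overlapping groups (0.153 ± 0.092 against 0.596 ± 0.432 CPM, −1.88 ± 0.70, edgeR adjusted p = 0.0465). Rbm20 (0.79 ± 0.64) and Celf2 (−0.33 ± 0.18) did not pass (edgeR adjusted p = 0.302 and 0.137).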
